A study of Mus musculus with 45 samples.

Results

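The genes described here encode potassium channels and their accessory subunits, apart from the large-conductance calcium-activated (BK) channel genes. They were chosen by name and level: symbols made of Kcn, further letters and a number, not beginning with Kcnm, with a mean CPM (a count scaled by the total of gene-assigned reads in its library) of at least 1 over 45 libraries. Of 24421 gene symbols counted, 87 had such a name and 69 met the level. The other 18 lay under it, with Kcng4 at 0.767 CPM, Kcne4 at 0.701 CPM and Kcnk5 at 0.693 CPM just outside and Kcnh8 at 1.11 CPM, Kcnj14 at 1.49 CPM and Kcnk4 at 2.06 CPM just inside. RNA came from punches of the nucleus accumbens of female HDID-1 mice of selection generation S35.G37, a line bred for high blood alcohol after drinking in the dark. All 4 groups carried the same pair of adeno-associated viruses on both sides of that region: rAAV2/5-CMV-Cre-GFP, which gives Cre recombinase from a general promoter, and rAAV2-hSyn-DIO-hM3Dq-mCherry, which gives the designer receptor hM3Dq from a neuronal promoter where Cre is present. A group without virus was not analysed here. Mice drank alcohol (EtOH) or water (H2O) in the dark each day for 6 weeks, singly housed, and from week 2 to week 5 were given either vehicle or 1 mg/kg of clozapine N-oxide (CNO, the drug that activates hM3Dq), with vehicle for all in weeks 1 and 6. Among alcohol drinkers 12 mice had CNO and 11 vehicle, and among water drinkers 11 had CNO and 11 vehicle, with 1 library per mouse. The mice's age is not given in the sources used here.

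Potassium channels let potassium leave or enter the cell and so set the resting potential, shape the action potential and limit repeated firing. Voltage-gated (Kv) channels open on depolarization, inward rectifiers (Kir) hold the resting potential, K2P channels carry a background leak, and SK and sodium-activated channels open when calcium or sodium rises in the cell. Medium spiny neurons, the main cells of the nucleus accumbens, rest at a very negative potential because of inward rectifiers and fire late because of slowly inactivating and A-type Kv currents. The G protein-gated inward rectifiers of the Kir3 group are also opened directly by ethanol.

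Each library held between 26.8 M and 39.5 M gene-assigned reads (mean 32.1 M). The 69 channel genes together took 0.573% of these reads. Markers of medium spiny neurons were high in all libraries, with a mean log2 CPM of 12 marker genes between 8.22 and 8.95. A cortical glutamatergic marker score, the mean log2 CPM of 7 genes, ran from 2.36 to 5.98. In 3 libraries it stood apart, at 2.36 in water CNO replicate 1, 2.52 in alcohol CNO replicate 2 and 2.91 in alcohol CNO replicate 12, against 3.68 in the next library. The microglia score was highest in alcohol vehicle replicates 5 and 10, at 7.36 and 6.68, against a median of 5.80. In bulk tissue, fewer cells of a type and less RNA per cell cannot be told apart.

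Levels between genes were compared per length, as CPM per kilobase of annotated exon (RPKM), with the spread over the 45 libraries. The highest was Kcnip2, a calcium-binding subunit of A-type Kv4 channels, at 131 RPKM ± 15.4 (SD, n = 45). Kcnab1, a cytoplasmic beta subunit that speeds the inactivation of Kv1 channels, followed at 112 RPKM ± 11.7 and lay below Kcnip2 in 38 of 45 libraries. Kcnj4, which encodes the strong inward rectifier Kir2.3, was at 84.0 RPKM ± 7.73 and below Kcnab1 in all 45. Kcnab2, another beta subunit gene, was at 74.4 RPKM ± 4.98. The lowest member was Kcnh8 at 0.258 RPKM. In all, 34 members had a mean above 10 RPKM and 11 a mean under 1 RPKM.

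**Figure D1:**
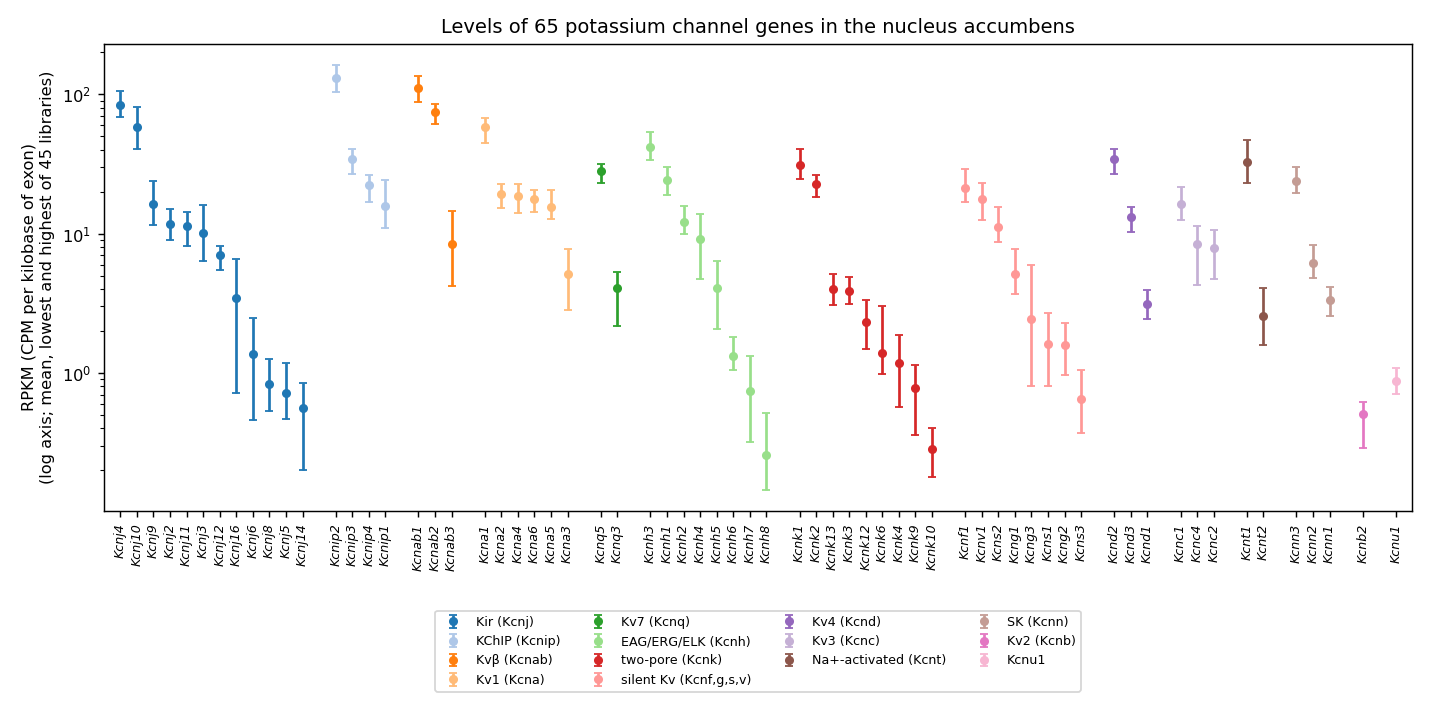
Mean level per length (RPKM, log axis) of 65 of the 69 channel genes, grouped by family; whiskers run from the lowest to the highest of 45 libraries. The accessory subunit genes Kcnip2 and Kcnab1 are highest, at 131 and 112 RPKM, and the Kir, Kcnh, K2P and silent Kv families each hold members over 10 RPKM beside members under 1 RPKM.

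By family, the 12 inward rectifier genes made up 16.4% of the summed RPKM, the 4 Kcnip genes 16.3% and the 3 Kcnab genes 15.5%. The accessory Kcnip and Kcnab genes, 7 in number, thus stood beside far larger families. The 6 Kv1 genes summed to 134.9 RPKM ± 8.59 (SD, n = 45) and the 8 Kcnh genes to 93.6 RPKM ± 6.69. The 9 K2P genes summed to 67.9 RPKM ± 4.78, the 8 silent Kv genes, whose products work only with Kv2 subunits, to 61.7 RPKM ± 6.38 and the 3 Kv4 genes to 50.4 RPKM ± 3.27. The 2 sodium-activated genes summed to 35.5 RPKM and the 3 SK genes to 33.5 RPKM.

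Among Kv1 genes, Kcna1 (Kv1.1, a low-threshold channel of axons) was highest at 58.7 RPKM ± 4.69 (SD, n = 45). Kcna2 (Kv1.2), which lies at chr3:107101146-107115005 on the plus strand (GRCm38, GENCODE M21), was at 19.2 RPKM ± 1.83, the 19th of the 69 genes. Kcna4 (Kv1.4, a fast-inactivating subunit) at 18.5 RPKM lay below it in only 25 of 45 libraries, so the neighbours did not differ beyond their spread. Kcna6 was at 17.7 RPKM, Kcna5 at 15.6 RPKM and Kcna3 at 5.11 RPKM. Kcnb2, a delayed rectifier of the Kv2 family, was at 0.507 RPKM. The silent subunit genes ranged from Kcnf1 at 21.4 RPKM and Kcnv1 at 17.7 RPKM to Kcns3 at 0.654 RPKM.

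Among Kv3 genes, whose channels let neurons fire fast, Kcnc1 was at 16.4 RPKM, Kcnc4 at 8.41 RPKM and Kcnc2 at 7.83 RPKM. In the Kv4 family, which carries the A-type current of dendrites, Kcnd2 was at 34.1 RPKM, Kcnd3 at 13.1 RPKM and Kcnd1 at 3.10 RPKM. Their KChIP partners after Kcnip2 were Kcnip3 at 34.5 RPKM, Kcnip4 at 22.3 RPKM and Kcnip1 at 15.8 RPKM. Of the Kv7 genes, whose channels carry the M current, Kcnq5 was at 28.1 RPKM and Kcnq3 at 4.09 RPKM. Kcnh3, of the ELK branch, led the Kcnh genes at 41.6 RPKM, ahead of Kcnh1 (EAG1) at 24.4 RPKM and Kcnh2 (ERG1) at 12.1 RPKM. Kcnt1 (Slack) was at 32.9 RPKM and Kcnt2 (Slick) at 2.55 RPKM, and Kcnn3 (SK3) at 24.0 RPKM led Kcnn2 (SK2) at 6.14 RPKM and Kcnn1 at 3.35 RPKM. Kcnu1, known for its channel in sperm, was at 0.882 RPKM.

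Among inward rectifiers, Kcnj10 (Kir4.1, the main potassium channel of astrocytes) followed Kcnj4 at 58.0 RPKM ± 8.51 (SD, n = 45). The Kir2 genes Kcnj2 and Kcnj12 were at 11.6 and 7.02 RPKM, and Kcnj11, the pore of neuronal ATP-sensitive channels, was at 11.4 RPKM. Among Kir3 genes, Kcnj9 (Kir3.3) was at 16.4 RPKM ± 2.86, Kcnj3 (Kir3.1) at 10.1 RPKM ± 2.28, Kcnj6 (Kir3.2) at 1.38 RPKM ± 0.493 and Kcnj5 (Kir3.4) at 0.723 RPKM ± 0.182. Kcnj16 (Kir5.1), which assembles with Kir4.1, had 3.42 RPKM ± 1.58. The K2P genes were led by Kcnk1 (TWIK1) at 31.3 RPKM and Kcnk2 (TREK1, a mechano- and lipid-sensitive leak channel) at 22.8 RPKM, and the other 7 lay between 0.282 and 3.98 RPKM.

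Exons of 18 members overlap exons of a gene on the opposite strand in the GENCODE M21 annotation, among them Kcna6, Kcnj3, Kcnk2 and Kcnn2, each over more than 10% of its length. Whether the authors' counts used strand is not given in the sources used here, so for these genes reads of both strands cannot be told apart. The share was 40.4% for Kcna6 and 31.1% for Kcnj3.

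Kcnj3, Kcnj6 and Kcnj9 rose with the same marker score across mice, as described further on, and the 100 bases before their start sites are shown for that reason, from RefSeq (GRCm38.p6), 5′ to 3′ on the gene's strand, with CG dinucleotides in capitals. Kcnj3 starts after chr2:55435870-55435969 on the plus strand. Kcnj6 has a pair of RefSeq starts, after chr16:94997697-94997796 and after chr16:94856691-94856790, both on the minus strand. Kcnj9 starts after chr1:172329323-172329422 on the minus strand.
Kcnj3: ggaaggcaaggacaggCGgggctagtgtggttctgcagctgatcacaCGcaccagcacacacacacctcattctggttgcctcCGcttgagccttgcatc
Kcnj6, start at the higher coordinate: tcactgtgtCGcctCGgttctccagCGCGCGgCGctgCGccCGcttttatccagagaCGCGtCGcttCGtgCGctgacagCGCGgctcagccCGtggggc
Kcnj6, start at the lower coordinate: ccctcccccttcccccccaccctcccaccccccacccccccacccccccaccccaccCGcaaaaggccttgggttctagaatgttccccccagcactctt
Kcnj9: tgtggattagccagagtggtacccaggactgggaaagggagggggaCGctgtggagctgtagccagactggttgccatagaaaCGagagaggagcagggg
The windows are unlike each other in CG content. The Kcnj6 start at the higher coordinate holds 16 CG dinucleotides in its 100 bases, against 3 for Kcnj3, 2 for Kcnj9 and 1 for the other Kcnj6 start. RefSeq windows of 250 bases before the start were matched for 47 of the 69 members, 70 windows in all. The GC box GGGCGG, searched on both strands, was in 47.1% of them, against 32.7% of 32851 windows of all genes. The TATA motif TATAAA was in 2.86% against 12.4%, the E-box CACGTG in 5.71% against 6.02%, and the cAMP response element TGACGTCA in 0 against 1.55%. The median GC content was 59.6% in the members' windows against 52.4% in those of all genes, and the median CG count 8 against 6. The motif shares were not adjusted for this base content. A match is a description of letters only.

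The question whether alcohol drinking was accompanied by a change in channel RNA was addressed under vehicle, under CNO and as the mean of both. No potassium channel gene passed in any of these, with edgeR's quasi-likelihood test and an adjusted p under 0.05 over 15852 genes. All 69 members were among the genes tested. Over all genes the share called was also 0 in each of the 3 contrasts, and DESeq2 and limma voom called 0 members as well. Over all genes DESeq2 called 3, 0 and 6 in the vehicle, CNO and averaged contrasts, and limma voom 0, 1 and 6. At an unadjusted p under 0.05 the count was 5 of 69 members under vehicle, all higher, against 8.36% of all genes. Under CNO it was 3 of 69, 2 higher and 1 lower, against 6.50%. Averaged over treatments it was 4 of 69, all higher, or 5.80% against 12.0% of all genes. These shares were below or near those of all genes. Leaving out 1 library at a time moved the counts to between 0 (without water vehicle replicate 10) and 9 under vehicle, 2 and 6 under CNO, and 3 and 9 averaged. Under vehicle, 1038 of 15877 genes stood beside the 0. Beside the 9, reached without water vehicle replicate 5, stood 1782 of 15885 genes. The 6 under CNO came without alcohol CNO replicate 6 (1172 of 15844 genes). The averaged 9 came without water CNO replicate 11 (2096 of 15889 genes). Leaving out 3 libraries rich in immune genes together (alcohol vehicle replicates 5 and 10, water vehicle replicate 9) gave an averaged count of 10 of 69, against 2327 of 15895 genes.

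The smallest p in the averaged alcohol contrast belonged to Kcnd3 (Kv4.3, a pore subunit of the A-type current). Its CPM had a lowest, median and highest value of 91.5, 109 and 118 in alcohol CNO mice, 85.0, 98.9 and 112 in alcohol vehicle, 81.2, 97.2 and 113 in water CNO and 78.3, 95.5 and 99.6 in water vehicle. All groups overlapped, with the alcohol medians above both water medians. The log2 fold change was 0.11 ± 0.04 (SE, adjusted p = 0.283, edgeR's quasi-likelihood test with Benjamini-Hochberg adjustment), with a 95% interval from 0.04 to 0.19.

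Kcnn3, whose SK3 channel carries an afterhyperpolarization driven by calcium, was next. In CPM its lowest, median and highest values were 61.3, 71.4 and 81.8 in alcohol CNO, 58.8, 71.1 and 86.1 in alcohol vehicle, 56.7, 66.3 and 78.3 in water CNO and 58.5, 65.1 and 76.8 in water vehicle mice. The groups overlapped over most of their range. Its averaged log2 fold change was 0.11 ± 0.04 (SE, edgeR adjusted p = 0.298). Kcnq3, an M channel subunit, had 0.17 ± 0.07 (edgeR adjusted p = 0.337), Kcnb2 0.15 ± 0.07 and Kcna2 0.07 ± 0.04.

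Under vehicle alone the smallest p was that of Kcna3 (Kv1.3, also known from lymphocytes and microglia). Its CPM ran from 7.02 to 12.2 with a median of 10.7 in alcohol vehicle mice and from 5.61 to 10.8 with a median of 8.27 in water vehicle mice. The ranges overlapped, and the log2 fold change was 0.27 ± 0.12 (SE, edgeR adjusted p = 0.543). Kcnk13 (THIK1, a K2P channel of microglia) had 0.15 ± 0.07 and Kcnq3 0.23 ± 0.11 in this contrast. Under CNO, Kcnh6 (ERG2) had 0.23 ± 0.09 (SE, edgeR adjusted p = 0.736). Its CPM lay between 3.72 and 5.95 with a median of 4.87 in alcohol CNO mice and between 3.94 and 4.83 with a median of 4.09 in water CNO mice, the latter wholly inside the former. Kcnk12 (THIK2), the silent relative of THIK1, had -0.24 ± 0.10, Kcnf1 -0.14 ± 0.07 and Kcns1 -0.23 ± 0.13. Across mice Kcnh6 rose with the share of reads assigned to no feature (r 0.59) and Kcnf1 with the cortical score (r 0.80). That share had a median of 19.6% in alcohol CNO against 17.5% in water CNO mice, and that score 4.96 against 5.33. Kcnk12 and Kcns1 had no relation with either that passed. The part of these measures in the differences was not tested.

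The question whether repeated activation of hM3Dq by CNO was accompanied by a change, measured after the final vehicle week, was addressed in alcohol drinkers, in water drinkers and as the mean of both. Again 0 of 69 members passed in each with edgeR, DESeq2 and limma voom. Over all genes edgeR called 0.871% in alcohol drinkers, 0.0694% in water drinkers and 0.889% in the averaged contrast. DESeq2 called 179, 24 and 204 genes in these contrasts, and limma voom 0, 0 and 47. With blocks of 6 consecutive S numbers (library numbers whose meaning is not given) as a covariate, edgeR called 0, 0 and 43. The shares of the fit as reported also depended on single libraries. The 138 genes called in alcohol drinkers became 0 without alcohol vehicle replicate 5 and 51 without replicate 10. The 11 in water drinkers became 1 without water vehicle replicate 9, and 55 without alcohol vehicle replicates 5 and 10. At an unadjusted p under 0.05 the count in alcohol drinkers was 0 of 69, against 7.32% of all genes. In water drinkers it was 8 of 69, all higher, against 5.54%. Averaged over fluids it was 10 of 69, 9 higher and 1 lower, or 14.5% against 9.30% of all genes. When 1 library was left out, the averaged count lay between 6 and 14. It was 6 without alcohol CNO replicate 1 (1396 of 15842 genes) or alcohol vehicle replicate 7 (1381 of 15882 genes). It was 14 without alcohol CNO replicate 2 (1609 of 15846 genes). Without both replicate 5 and replicate 10 of the alcohol vehicle group it was 6 of 69, against 1030 of 15910 genes. Without the 3 libraries rich in immune genes it was 2 of 69 against 813 of 15895 genes. Its excess over all genes thus did not hold without those 3 libraries. In water drinkers the count fell to 3 without water vehicle replicate 10, against 571 of 15877 genes. It fell to 4 without water CNO replicate 4 (652 of 15891 genes) and to 5 without the 3 libraries (789 of 15895 genes). It rose to 12 without water CNO replicate 1 (1012 of 15886 genes). In alcohol drinkers the count rose from 0 to at most 4, without alcohol vehicle replicate 3 (1453 of 15885 genes). The members share libraries and many of them correlate, so these counts are descriptions and not a test of the group.

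**Figure D2:**
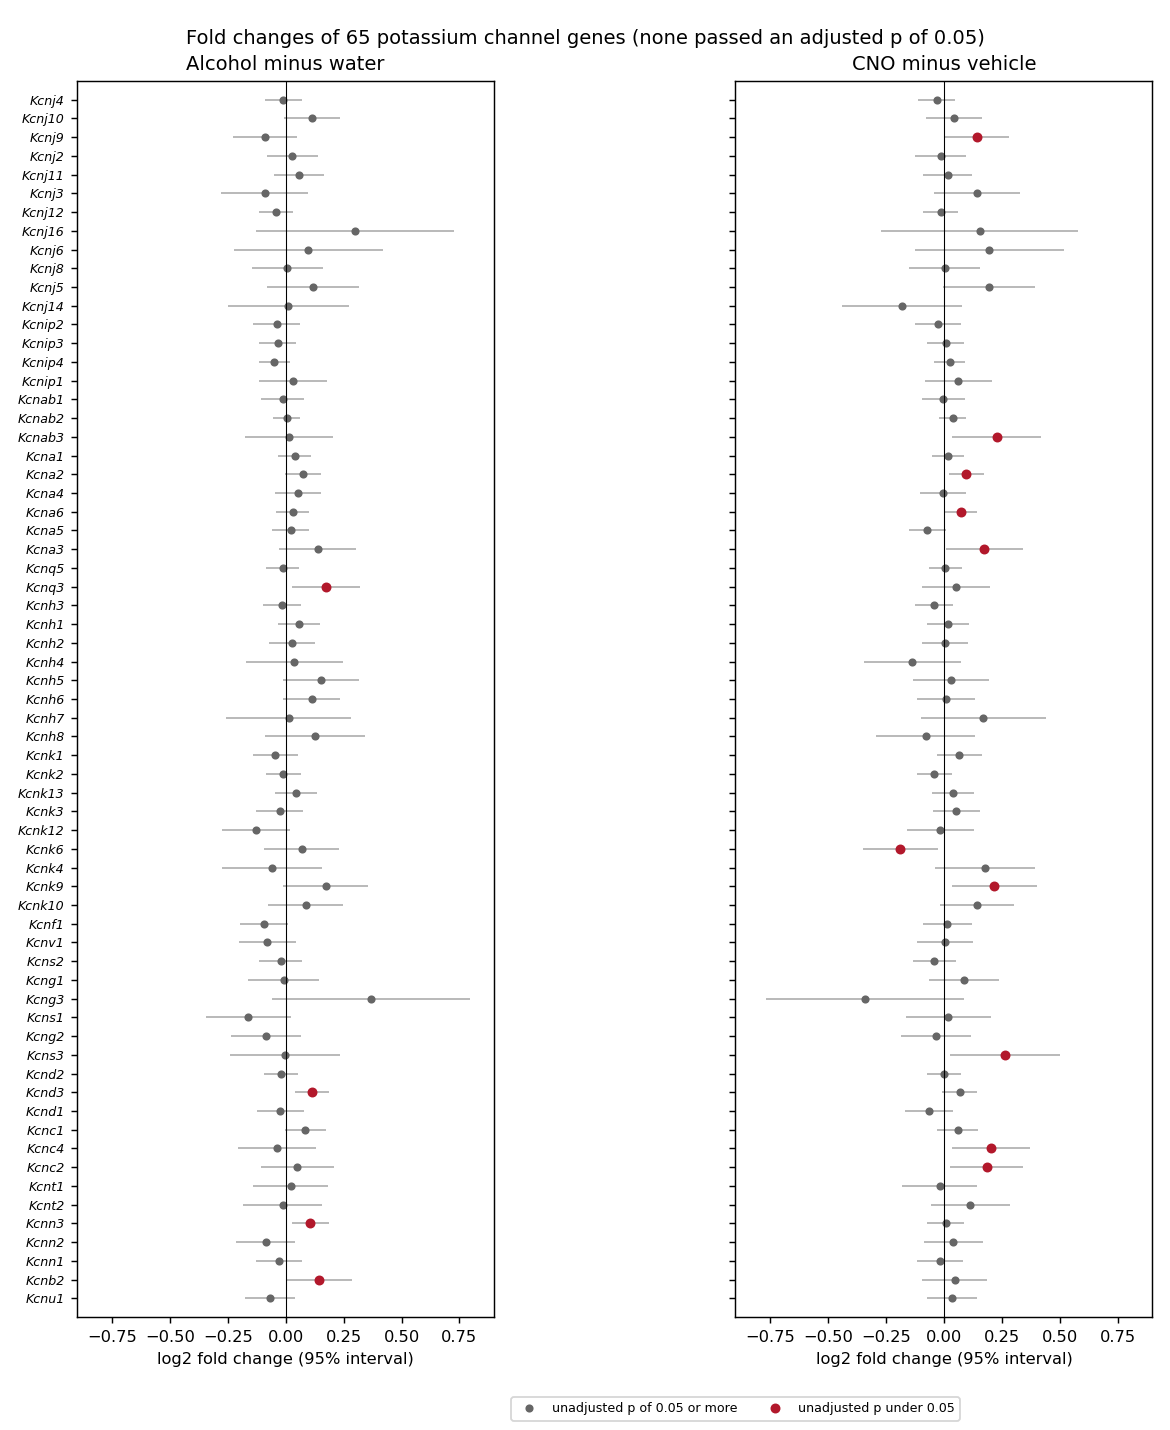
Log2 fold change of 65 of the 69 channel genes, alcohol minus water averaged over treatments (left) and CNO minus vehicle averaged over fluids (right), from edgeR; lines are 95% intervals and red points have an unadjusted p under 0.05. No gene passed an adjusted p of 0.05, and the widest intervals are those of Kcnj16 and Kcng3.

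Kcna2 had the smallest p in the averaged CNO contrast. Kv1.2, its product, sits beside Kv1.1 in axons and sets the threshold for firing. Its CPM had a lowest, median and highest value of 218, 240 and 262 in alcohol CNO mice, 184, 223 and 270 in alcohol vehicle, 181, 231 and 256 in water CNO and 185, 209 and 256 in water vehicle. The groups overlapped, and the medians with CNO were above those with vehicle in both fluids. The averaged log2 fold change was 0.10 ± 0.04 (SE, edgeR adjusted p = 0.343), from 0.02 to 0.17 in its 95% interval. It was 0.08 ± 0.05 in alcohol drinkers and 0.12 ± 0.05 in water drinkers.

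Kcnc4 (Kv3.4) and Kcnc2 (Kv3.2), channels of fast-firing neurons, were next to it. Kcnc4 had a lowest, median and highest CPM of 15.7, 32.3 and 41.9 in alcohol CNO, 20.0, 29.1 and 37.7 in alcohol vehicle, 23.6, 36.3 and 40.6 in water CNO and 21.0, 29.7 and 36.0 in water vehicle mice. The ranges overlapped in every pair of groups. The averaged CNO log2 fold change was 0.20 ± 0.08 for Kcnc4 (SE, edgeR adjusted p = 0.373) and 0.18 ± 0.08 for Kcnc2. Kcnab3, a beta subunit, had 0.23 ± 0.10 and Kcnk9 (TASK3, an acid-sensitive leak channel) 0.22 ± 0.09. Kcnc4 (shown further on), Kcnc2 and Kcnk9 correlated positively with the cortical score across mice. For Kcnk9 r was 0.38, the smallest in size of those that passed with this score. Kcna2 had no relation with it that passed. The median score was 5.33 in water CNO against 5.02 in water vehicle mice and 4.96 in alcohol CNO against 4.99 in alcohol vehicle mice. With the cortical score as a covariate, 13 members had an unadjusted edgeR p under 0.05 for averaged CNO, against 10 without it. Over all 15852 genes the counts were 1637 with the covariate and 1474 without it. The members' median log2 fold change was 0.019 with it and 0.018 without it. These counts do not separate single genes, and the part of tissue make-up in the difference of each gene was not tested.

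In water drinkers the smallest p was that of Kcna6 (Kv1.6), with 0.13 ± 0.05 (SE, edgeR adjusted p = 0.846). Its CPM lay between 96.2 and 121 with a median of 106 in water CNO mice and between 83.7 and 114 with a median of 97.7 in water vehicle mice. Kcna3 had 0.31 ± 0.12, Kcnc4 0.29 ± 0.12, Kcnk9 0.30 ± 0.13 and Kcnj9 0.22 ± 0.10 in this contrast. In alcohol drinkers the smallest p was that of Kcnk6 (TWIK2, a leak channel of macrophages and microglia), with -0.22 ± 0.11 (SE, edgeR adjusted p = 0.707). Its CPM ran from 4.13 to 6.15 with a median of 5.55 in alcohol CNO mice and from 4.78 to 12.4 with a median of 5.50 in alcohol vehicle mice. The highest value, 12.4, was that of alcohol vehicle replicate 5, the library with the highest microglia score, and without replicates 5 and 10 of that group the log2 fold change was 0.01. Kcnk6 was also the member counted as lower in the averaged contrast, with -0.19 ± 0.08. Kcnab3 had 0.24 ± 0.13, Kcnj5 0.24 ± 0.14, Kcng3 -0.46 ± 0.30 and Kcna5 -0.08 ± 0.06.

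The difference between the CNO effects in the 2 fluids was tested as an interaction, and 0 of 69 members passed, with 0% of all genes called. With edgeR at an unadjusted p under 0.05, 1 member lay below 0, Kcnk13, against 3.13% of all genes. Its median CPM was 12.6 in alcohol CNO, 12.8 in alcohol vehicle, 12.8 in water CNO and 11.6 in water vehicle mice. The interaction was -0.21 ± 0.09 on the log2 scale (SE, edgeR adjusted p = 0.983). For Kcna3 it was -0.27 ± 0.17, for Kcnh6 0.24 ± 0.12, for Kcnh2 0.18 ± 0.10 and for Kcna6 -0.12 ± 0.07.

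The intervals, each without adjustment over genes, show what sizes of difference the data allow. The 95% interval lay within a 1.5-fold change in either direction for 66 of 69 members for alcohol under vehicle, 67 under CNO and 67 averaged. For CNO the counts were 66 in alcohol drinkers, 62 in water drinkers and 68 averaged, and for the interaction 60. Within 1.2-fold the averaged contrasts bounded 52 members for alcohol and 48 for CNO. The genes left outside 1.5-fold in the averaged contrasts were Kcng3 and Kcnj16 for alcohol and Kcng3 for CNO.

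Families were described by their medians. In the averaged alcohol contrast the median log2 fold change was 0.01 for the 69 members and 0.0030 for all genes, with 39 members above 0. All 6 Kv1 genes were above 0, with a median of 0.05, and 7 of 8 silent Kv genes were below 0, with a median of -0.05; of both families, 0 genes had an unadjusted p under 0.05. In the averaged CNO contrast the members' median was 0.02 against 0.00014 for all genes, with 48 of 69 above 0, or 69.6% against 50.2% of all genes, and with 41 of 69 above 0 without the 3 libraries rich in immune genes. The Kv3 genes Kcnc4 and Kcnc2 had an unadjusted p under 0.05, and 3 of the 6 Kv1 genes had such a p. The contrasts share mice, so these counts are not independent of each other.

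Of 32 genes for channel partners (scaffolds, auxiliary and trafficking proteins, GABA-B receptors and HCN channels), 0 passed with edgeR in any of the 7 contrasts. At an unadjusted p under 0.05 there were 2 for averaged alcohol, or 6.25% against 12.0% of all genes, and 3 for averaged CNO, or 9.38% against 9.30%, all higher. Hcn4, a hyperpolarization-activated cation channel, had 0.25 ± 0.10 for averaged alcohol (SE, edgeR adjusted p = 0.318) and Ank3, which anchors M channels at the axon initial segment, 0.10 ± 0.04. In the averaged CNO contrast 28 of the 32 lay above 0, or 87.5% against 50.2% of all genes, with a median of 0.04.

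Between mice of 1 group the members' median spread was above that of all genes. The median within-group SD of log2 CPM was 0.202 for the 69 members, with the highest, 0.782, for Kcnj16, against 0.156 for all genes tested and 0.141 for those at or above the lowest member's level. It was over 0.3 in 16 of 69 members, in 3715 of 15852 genes tested and in 1918 of the 13981 at or above that level. The share over 0.3 was thus alike in members and in all genes tested. It was lower in the 13981, which were not matched to the members in level. Kcnj16 had a lowest, median and highest CPM of 8.26, 13.7 and 25.7 in alcohol CNO, 2.83, 13.4 and 25.4 in alcohol vehicle, 3.40, 12.7 and 23.2 in water CNO and 5.01, 9.70 and 22.6 in water vehicle mice. Each of the 4 groups held both low and high mice. Kcng3, a silent Kv subunit, had 3.23, 5.00 and 15.0 CPM in alcohol CNO, 4.94, 9.63 and 18.3 in alcohol vehicle, 2.88, 5.81 and 10.8 in water CNO and 2.72, 6.29 and 19.9 in water vehicle mice. All its groups overlapped, and its averaged log2 fold changes were 0.37 ± 0.21 for alcohol and -0.34 ± 0.21 for CNO.

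**Figure D3:**
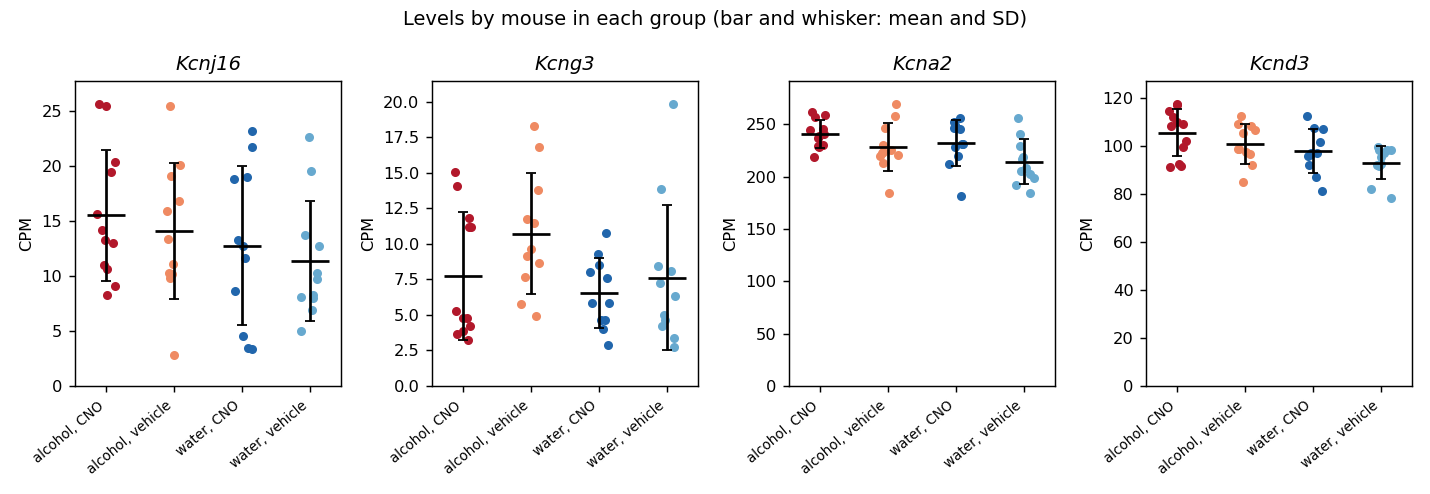
CPM (linear axis from 0) of Kcnj16, Kcng3, Kcna2 and Kcnd3 in each mouse by group; bar and whisker are the mean and SD. Kcnj16 and Kcng3 spread several-fold within every group, Kcna2 spans 181 to 270 CPM and Kcnd3 78.3 to 118 CPM.

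Punches can hold neighbouring tissue, so each member's log2 CPM was compared across the 45 mice with 7 marker scores. It was also compared with the share of uniquely aligned reads assigned to no counted feature in the authors' counts (no-feature share). A further measure was the level of Pvalb, the parvalbumin gene of fast-spiking interneurons. The last 2 measures were added after the data were seen. Of the 621 relations, adjusted together for p-values from 100000 permutations, 57 of 69 members had at least 1 that passed. Most passed with the medium spiny score (33 members, 19 positive and 14 negative), the cortical score (30 members, 21 positive and 9 negative) and Pvalb (29 members, 18 positive and 11 negative). The oligodendrocyte score passed with 2. These relations were computed for the 69 members only. No share over all genes stands beside the counts, so they do not set channel genes apart from others. Some measures also went together in the same libraries. The 3 libraries of lowest cortical score had medium spiny scores of 8.81, 8.95 and 8.82, against a median of 8.58. Water CNO replicate 2 was highest in both cortical score and Pvalb. Water vehicle replicate 10 had the highest no-feature share and a mural score of 4.47, against a median of 4.08. Relations with single measures were therefore not separated from each other.

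**Figure D4:**
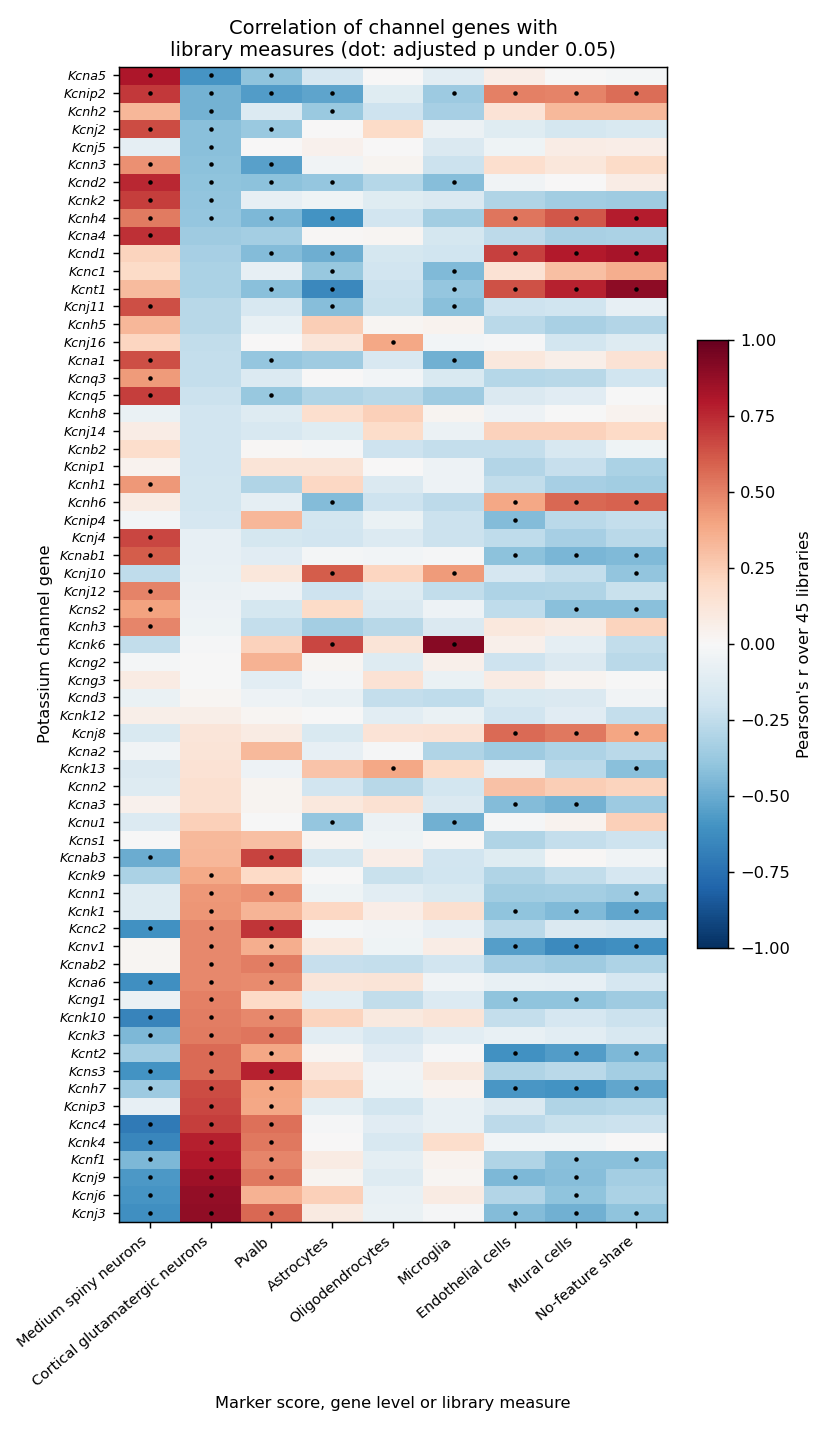
Pearson's r over 45 libraries of the log2 CPM of 65 of the 69 channel genes with 9 library measures, genes ordered by r with the cortical score; dots mark a permutation p under 0.05 after adjustment over 621 relations. Genes high on the cortical column (Kcnj3, Kcnj6, Kcnj9) are low on the medium spiny column, and Kcnt1 and Kcnd1 stand out on the no-feature column.

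The Kir3 genes Kcnj3, Kcnj6 and Kcnj9 had the highest r with the cortical score, and Kcnj5, the other Kir3 gene, a negative one. Kcnj3 had a lowest, median and highest CPM of 33.1, 51.7 and 68.8 in alcohol CNO, 38.0, 48.9 and 79.1 in alcohol vehicle, 33.1, 58.3 and 83.1 in water CNO and 35.6, 47.7 and 65.6 in water vehicle mice. The groups overlapped, and the spread within each was far wider than the distance between medians. Its r with the cortical score was 0.88 and rho 0.92, both with an adjusted permutation p under 0.001 (0.000151 for r, from 1e-05, the smallest p these permutations can give). Without the 2 libraries farthest from the median score r was 0.88, and without the 3 libraries of lowest score 0.88. Within the 4 groups it lay between 0.85 and 0.93.

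Kcnj6 had r of 0.88 and rho of 0.80 with the same score, 0.83 without the 2 farthest libraries and 0.78 without the 3 lowest. The 3 libraries of lowest score included the lowest Kcnj6 value, 3.02 CPM in water CNO, and that of alcohol CNO, 3.14 CPM, while the highest of all was 16.1 CPM in alcohol vehicle. Kcnj9 had r of 0.85 and rho of 0.92, and 0.87 without the 3 lowest. A fitted rise of 1 unit of cortical score went with 0.63 log2 units of Kcnj6, 0.35 of Kcnj3 and 0.26 of Kcnj9. For Kcnj5 r was -0.41 and rho -0.35. Kcnj3, Kcnj6 and Kcnj9 are those whose start regions are printed above.

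Other members that rose with the cortical score were Kcnf1 (r 0.80, rho 0.87), Kcnk4, the TRAAK leak channel (r 0.78, rho 0.70), and Kcnc4 (r 0.69, rho 0.61), each with an adjusted permutation p of 0.000151 for r. The strongest falls were those of Kcna5 (r -0.59, rho -0.49), Kcnip2 (r -0.47, rho -0.48) and Kcnh2 (r -0.47, rho -0.52). Without the 3 libraries of lowest score Kcna5 had r of -0.41. All r values here share library depth and TMM scaling.

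The medium spiny score rose with Kcna5 (Kv1.5), whose r was 0.80 and rho 0.81 (adjusted permutation p = 0.000151 for r). Kcna5 had a lowest, median and highest CPM of 36.5, 43.5 and 51.7 in alcohol CNO, 40.6, 45.7 and 58.5 in alcohol vehicle, 37.2, 42.4 and 54.4 in water CNO and 40.1, 45.7 and 49.1 in water vehicle mice, and all groups overlapped. Without the 2 farthest libraries r was 0.81, and within the groups it lay between 0.73 and 0.93. Kcnd2 (r 0.75), Kcna4 (r 0.73) and Kcnip2 (r 0.71), which are among the genes of the A-type current, followed. The leak channel gene Kcnk2 (r 0.69), Kcnq5 (r 0.69), and the inward rectifier Kcnj4 (r 0.67) did so too. Kcnc4 (r -0.70), Kcnk10 (r -0.66), Kcnk4 (r -0.65), Kcnj3 (r -0.61) and Kcna6 (r -0.61) went down with it. The other Kv4 and KChIP genes did not share 1 pattern. Kcnd3 and Kcnip1 passed with no measure. The strongest passing r was with the cortical score for Kcnip3 (0.67), the endothelial score for Kcnip4 (-0.43) and the no-feature share for Kcnd1 (0.82). The medium spiny score itself moved little, from 8.22 to 8.95.

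Pvalb rose together with Kcns3, a silent subunit (r 0.77, rho 0.75), Kcnc2 (r 0.72, rho 0.76), Kcnab3 (r 0.67, rho 0.70) and Kcnj3 (r 0.58, rho 0.53). Kcns3 lay between 1.18 and 3.31 CPM. Kcnip2 (r -0.56) and Kcnn3 (r -0.54) went the other way.

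The highest r of the 621 was that of Kcnk6 with the microglia score, at 0.91 with rho of 0.80 (adjusted permutation p = 0.000151 for r). Without the 2 libraries farthest from the median score, which are the alcohol vehicle replicates 5 and 10, r was 0.78. Leaving out water vehicle replicate 9 as well gave 0.73. Kcnk13 had r of 0.19 with the same score and rho of -0.03, and neither passed. The other member that rose with microglia was Kcnj10 (r 0.42), whose r was 0.23 without the 2 farthest libraries and 0.26 without the 3 libraries rich in immune genes, and did not pass in either. With the astrocyte score Kcnk6 had r of 0.67 and Kcnj10 r of 0.61 and rho of 0.63. Alcohol vehicle replicates 5 and 10 were also farthest from the median astrocyte score, at 8.61 and 8.50 against 8.07. The number of members that passed with this score went from 14 to 7 without them, and 7 passed by rank. Kcnj10 ran from 220 to 436 CPM over all mice. Kcnj16 (r 0.39) and Kcnk13 (r 0.38) were the 2 members that passed with the oligodendrocyte score. Without the 2 libraries farthest from its median their r was 0.37 and 0.29, and neither passed.

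Kcnt1 and Kcnd1 had the 2 highest r with the no-feature share, with the mural score and with the endothelial score. Kcnt1 had r of 0.90 with the no-feature share and rho of 0.90, and 0.88 without the 2 farthest libraries. Its CPM had a lowest, median and highest value of 172, 210 and 296 in alcohol CNO, 144, 204 and 267 in alcohol vehicle, 149, 194 and 273 in water CNO and 148, 232 and 292 in water vehicle mice. All groups overlapped. The no-feature share ran from 15.6% to 21.9%, with group medians of 19.6% in alcohol CNO, 18.1% in alcohol vehicle, 17.5% in water CNO and 18.4% in water vehicle mice. Kcnd1 (Kv4.1) had r of 0.82 with it, Kcnh4 r of 0.79 and Kcnh6 r of 0.59, while Kcnv1 (r -0.62) and Kcnh7 (r -0.52) went down. With the mural score (pericytes and smooth muscle) Kcnd1 had r of 0.79, Kcnt1 0.77 and Kcnj8 0.53, and with the endothelial score Kcnd1 had 0.69, Kcnt1 0.64 and Kcnj8 0.57. Kcnj8 (Kir6.1), the pore of ATP-sensitive channels of pericytes, had a smaller r with both than Kcnd1 and Kcnt1 had, and these differences were not tested. What the no-feature share stands for in these libraries was not tested.

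**Figure D5:**
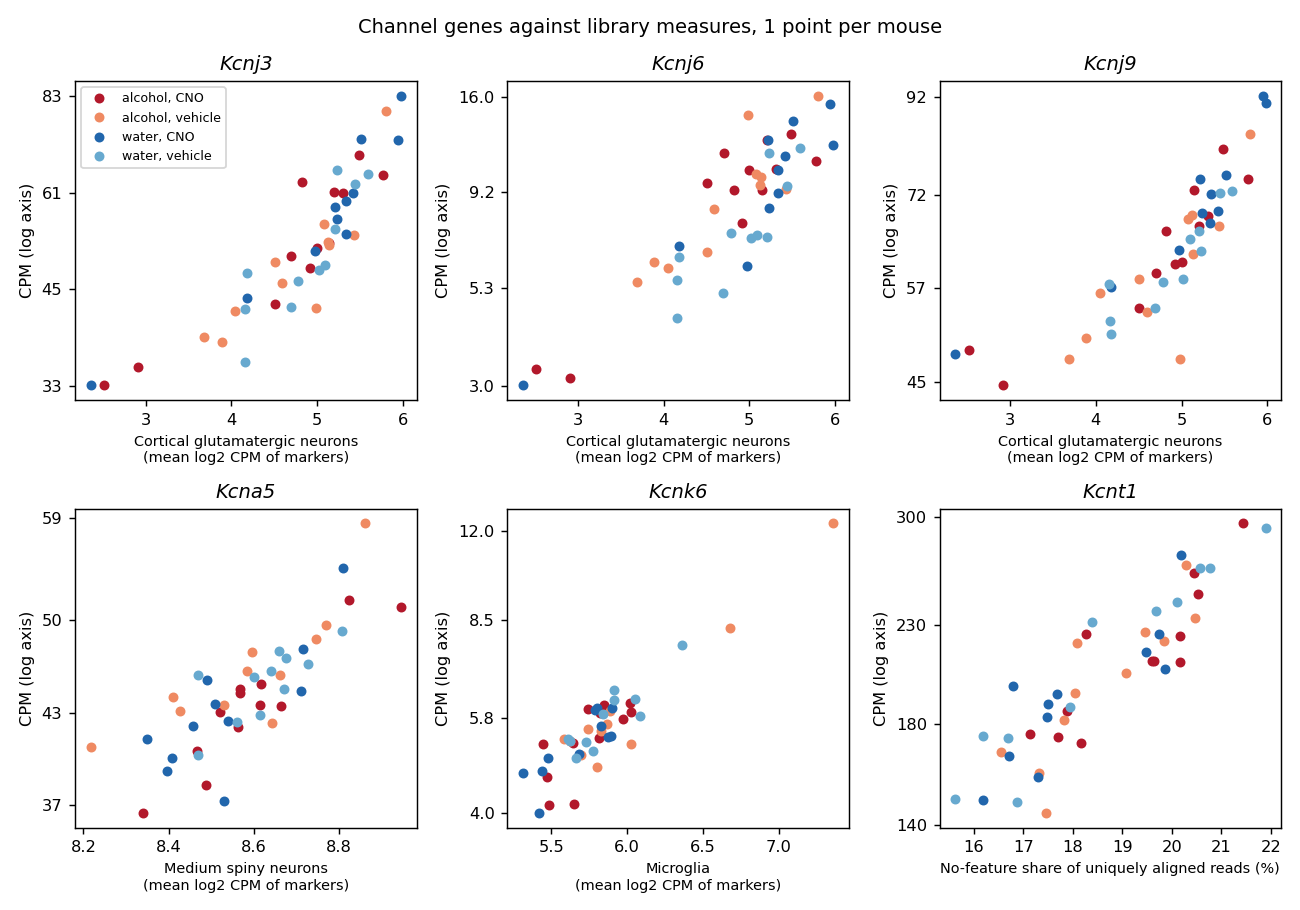
CPM (log axis) of 6 channel genes against a library measure, 1 point per mouse, coloured by group. The 3 libraries with a cortical score under 3 are at the lower left for Kcnj3, Kcnj6 and Kcnj9, alcohol vehicle replicate 5 is at the upper right for Kcnk6, and the groups are mixed along each trend.

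In 12 members 0 of the 9 relations passed: Kcna2, Kcnb2, Kcnd3, Kcng2, Kcng3, Kcnh5, Kcnh8, Kcnip1, Kcnj14, Kcnk12, Kcnn2 and Kcns1. They include Kcnd3 and Kcna2, which had the smallest p for averaged alcohol and averaged CNO. Kcng3, among the most variable members, is also one of them.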

How the data were processed

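Total RNA of 45 nucleus accumbens punches was sequenced from TruSeq libraries. The deposited files hold unnormalized counts per gene symbol, made by the authors with STAR and HTSeq 0.9.1 on GRCm38 (mm10), per the submitters' processing notes; the strand setting is not given in the sources used here, nor is the annotation. HTSeq's 5 summary rows were kept apart from the genes. Groups came from the labels, and each library is a different mouse. 

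The 69 members, the gene lists and the tests were chosen with earlier results of these data known. Genes were filtered by filterByExpr (15852 left), scaled by TMM and fitted with edgeR 4.0.16 in R 4.3.3 (glmQLFit, robust, 1 coefficient per group), giving 7 contrasts, with p adjusted over all genes (Benjamini-Hochberg) and called under 0.05. Standard errors are approximate: log2 fold change over root F. Levels in text are CPM after TMM scaling, log2 CPM used a prior count of 2, and RPKM used GENCODE M21 exon unions. Members named in a contrast are the 5 with the smallest p, and in correlations those of highest and lowest r; members shown outside these were chosen after their values were seen. Correlations used Python 3.11.15 and numpy 2.4.6. The count test and the correlations were tested on simulated data. Alternatives used DESeq2 1.42.0, limma 3.58.1, other scaling, filters, covariates and samples. Values of 4 members and 1 partner gene were part of every fit, count and median, and are not reported here singly.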

Additional observations from a re-analysis of the deposited data

How the results depend on the processing

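The count of channel genes passing was 0 under 12 alternative settings (scaling, filters, S-number block, no-feature share, cortical or oligodendrocyte score as covariates, DESeq2, voom, other samples) in every contrast fitted, which were 7 each and 4 where only the groups compared were used. It was 0 in the 7 contrasts of the fit as reported at an adjusted p under 0.1, and at 0.05 in fits that left out each library in turn. The smallest adjusted p of a member in any of those settings was 0.0838, for averaged CNO with the cortical score as a covariate, and 0.0917 for averaged alcohol with the no-feature share. Over all genes the count called changed between settings. Averaged alcohol had 98 of 15852 genes with the no-feature share, against 0 in the fit as reported. For CNO in alcohol drinkers it was 221 of 21634 genes without a filter and 0 with the S-number block. Of 405 recomputed log2 fold changes of named members, 403 kept their direction and side of the threshold; Kcnk6 for CNO in alcohol drinkers turned from -0.22 to 0.01 (0.0061) without alcohol vehicle replicates 5 and 10, and to 0.0037 also without water vehicle replicate 9, the libraries richest in immune genes. Members correlated with the astrocyte score fell from 14 to 7 without those 3 libraries, to 7 without the 2 farthest and to 9 without the 3 of lowest cortical score, a setting chosen after seeing the data. With the microglia score they fell from 11 to 1 and to 2 under the first 2 of these, and the r of Kcnk13 turned from 0.19 to -0.17 under both. With the oligodendrocyte score they went from 2 to 1 with block means removed, 4 with group means removed, 1 without the 3 immune libraries and 0 without the 2 farthest. The cause was not tested. Of 540 named correlations, 512 were the same, 25 lost their call and 1 gained it. No paired analysis was possible because each library is a different mouse and the labels pair none. Depth limits genes such as Kcnh8 (1.11 CPM) most; per-length levels also depend on the annotation, which may differ from that of the counts.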

Other observations

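Kcng3 and Kcnj16, the members that varied most between mice, were set beside every tested gene within 1 Mb, 15 pairs chosen after their values were seen. Kcng3 fell as its neighbour Cox7a2l rose, with r of -0.77 and rho of -0.77 over 45 mice (adjusted permutation p = 0.00015 over the 15 pairs, the smallest the permutations allow), and r was -0.75 without the 2 farthest libraries. Cox7a2l, which encodes a factor of respiratory supercomplexes, lies at chr17:83501918-83517330 on the minus strand (GRCm38), 68627 bp from Kcng3, and ran from 5.70 to 6.57 log2 CPM. Thada, on the other side of Kcng3, had r of 0.41 (adjusted permutation p = 0.0386) but rho of 0.33 (adjusted permutation p = 0.106), and the other 6 neighbours of Kcng3 did not pass. For Kcnj16, Map2k6 had r of 0.38 and Kcnj2, 38196 bp away, r of 0.37 (adjusted permutation p = 0.0436 for both). Without the 2 libraries farthest from the median of Kcnj16, r was 0.30 for Map2k6 and 0.27 for Kcnj2. By rank Map2k6 passed, with rho of 0.42 (adjusted permutation p = 0.0338), and Kcnj2 did not, with rho of 0.34 (adjusted permutation p = 0.106).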
